A study of Mus musculus with 2 samples.

Results

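Before a cell divides it copies its genome once, and the proteins that do this are made in bulk at the passage from G1 into S phase. Licensing factors load the MCM helicase onto origins, firing factors switch the helicase on, polymerases held by a sliding clamp copy the strands, and a set of enzymes supplies the nucleotides. Transcription of many of these genes is driven by E2F factors, which the retinoblastoma protein RB holds back until cyclin-dependent kinases release them. In the injured heart, fibroblasts proliferate in the first days after myocardial infarction (MI) as they become myofibroblasts, the cells that deposit collagen.

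The mRNA levels of 46 genes of DNA replication and S phase were examined here, among 24532 genes listed in the count table of the series. They were chosen by symbol, as a list of replication proteins and their immediate regulators, and all 46 were found with reads in both libraries. They fall into 8 roles: origin licensing (10 genes), origin firing (6), polymerases and primase (7), the clamp and its loader (6), single-strand binding and Okazaki fragment joining (5), nucleotide supply (5), G1/S regulators (3), and chromatin assembly and repair (4).

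Cardiac myofibroblasts of C57BL/6 mice (C57BL/6J by the study's methods) were isolated 3 days after MI as the adherent cells that CD45 beads did not retain, grown in medium with serum, and transfected with 12.5 nM of a control siRNA (siCtrl) or of an siRNA against *Vgll3* (si*Vgll3*), a cofactor of TEAD transcription factors. Total RNA was collected 72 h later. The infarction model used young adult male mice, and the number of mice behind a culture is not given in the sources used here. There was 1 library per condition, made from 1 siRNA sequence against the target, so no difference below has a replicate check and none was tested.

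The siCtrl library held 140815237 reads counted on genes and the si*Vgll3* library 125789276. *Vgll3* itself was at 202 TPM (transcript abundance corrected for the length of the gene and the size of the library) with siCtrl and 84.0 TPM with si*Vgll3*. Of 13 myofibroblast markers, 5 were higher with si*Vgll3* (38.5%, against 43.0% of all genes above the filter defined below) and 8 were lower. The list summed to 19893 TPM with siCtrl and 15638 TPM with si*Vgll3*. Of these markers, *Acta2* and *Col1a1* were at 3296 and 4918 TPM with siCtrl and at 3866 and 2631 TPM with si*Vgll3*. Of 13 leukocyte markers, 7 had 0 reads in both libraries, among them *Ptprc*, the gene of CD45, and the list summed to 15.8 TPM with siCtrl and 14.5 TPM with si*Vgll3*. Of 8 cardiomyocyte markers, 6 had 0 reads in both libraries, and the 1 with a listed TPM, *Tnnt2*, was at 60.0 TPM with siCtrl and 10.4 TPM with si*Vgll3*. Endothelial markers summed to 26.8 and 23.4 TPM, mural markers to 2.11 and 1.54 TPM, and mesothelial markers to 43.7 and 37.4 TPM. These sums hide single markers that differed in opposite directions, such as the leukocyte genes *Cd53*, at 0.760 TPM with siCtrl and 5.91 TPM with si*Vgll3*, and *Lyz2*, at 10.9 and 3.13 TPM. Of the mesothelial genes, *Krt19* was at 2.86 and 16.8 TPM and *Msln* at 1.58 and 5.93 TPM, while *Upk3b* was at 31.6 and 9.89 TPM. The part of these cells in the results was not tested.

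The promoter sequences are given first, because E2F sites are the regulatory feature for which replication genes are known. RefSeq promoters (GRCm38.p6, from 250 bases before the annotated start to 50 bases from it on) were at hand for 38 of the 46 genes, as 43 windows of 300 bases. For 35 of these windows the first 20 bases after the start were found in a GENCODE transcript of the gene. Both strands were searched for 4 octamers of the E2F consensus (TTTCCCGC, TTTCGCGC, TTTGCCGC and TTTGGCGC), for the hexamer TTTGAA of the cell cycle homology region (CHR), which is known from genes of mitosis, and for CCAAT, the box bound by NF-Y. An E2F octamer was present in 14 of the 43 windows (32.6%), in 494 of 11983 windows of genes expressed above the filter defined below (4.12%), and in 744 of all 32851 windows (2.26%). Related lists described further on also held it, in 9 of 27 windows of the RB-E2F pathway (33.3%) and in 10 of 43 windows of other replication genes (23.3%). The CHR hexamer was present in 4 member windows (9.30%) and in 11.8% of windows of expressed genes, while 26 of 35 windows of a list of mitosis genes held it (74.3%) and 1 of these 35 held an E2F octamer. CCAAT was present in 25 member windows (58.1%) and in 38.1% of windows of expressed genes. The share was 77.1% for mitosis genes, 48.1% for the RB-E2F pathway and 41.9% for other replication genes. The GC content was alike, with a median of 61.3% in member windows and 61.0% in those of expressed genes. No test was made of these shares, and a match is not a bound site. A window without a match may still hold a site of another form.

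Stretches of the promoters of 4 of the 6 MCM2-7 helicase genes are shown because these subunits assemble into the same ring, and these 4 were picked for holding an octamer. The window of *Mcm2* held none, and that of *Mcm4* was not analysed here. Capitals mark the E2F octamers, read 5′ to 3′ on the strand of the gene, and positions count from 0 at the annotated start. In *Mcm5* and *Mcm6* a pair of octamers on opposite strands overlapped, which left a stretch of 12 capitals.
Mcm3, chr1:20820263-20820308, minus strand, 4 to 49: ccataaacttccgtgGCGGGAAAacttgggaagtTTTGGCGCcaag
Mcm5, chr8:75109341-75109382, plus strand, -168 to -127: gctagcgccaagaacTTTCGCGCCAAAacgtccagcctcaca
Mcm6, chr1:128359789-128359830, minus strand, -125 to -84: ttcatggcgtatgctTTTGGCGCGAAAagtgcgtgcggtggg
Mcm6, chr1:128359730-128359767, minus strand, -62 to -25: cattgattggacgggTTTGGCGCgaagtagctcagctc
Mcm7, chr5:138172026-138172063, minus strand, -180 to -143: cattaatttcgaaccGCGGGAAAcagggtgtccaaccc
Mcm7, chr5:138171845-138171882, minus strand, 1 to 38: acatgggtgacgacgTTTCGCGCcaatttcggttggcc

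Across the member promoters there were 20 octamer matches in 14 genes, of which 12 lay wholly before the start and 8 began at or after it. In 5 genes there was more than 1 match. In *Mcm7* the second octamer shares its last base with a CCAAT box, and this was the only such overlap. The other genes with an octamer were *Orc1*, *Cdc6*, *Cdt1*, *Gins3*, *Pola1*, *Pold1*, *Pole2*, *Rfc3*, *Lig1* and *Uhrf1*. In 9 of the 38 genes none of the 3 motifs was matched in this window.

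**Figure D1:**
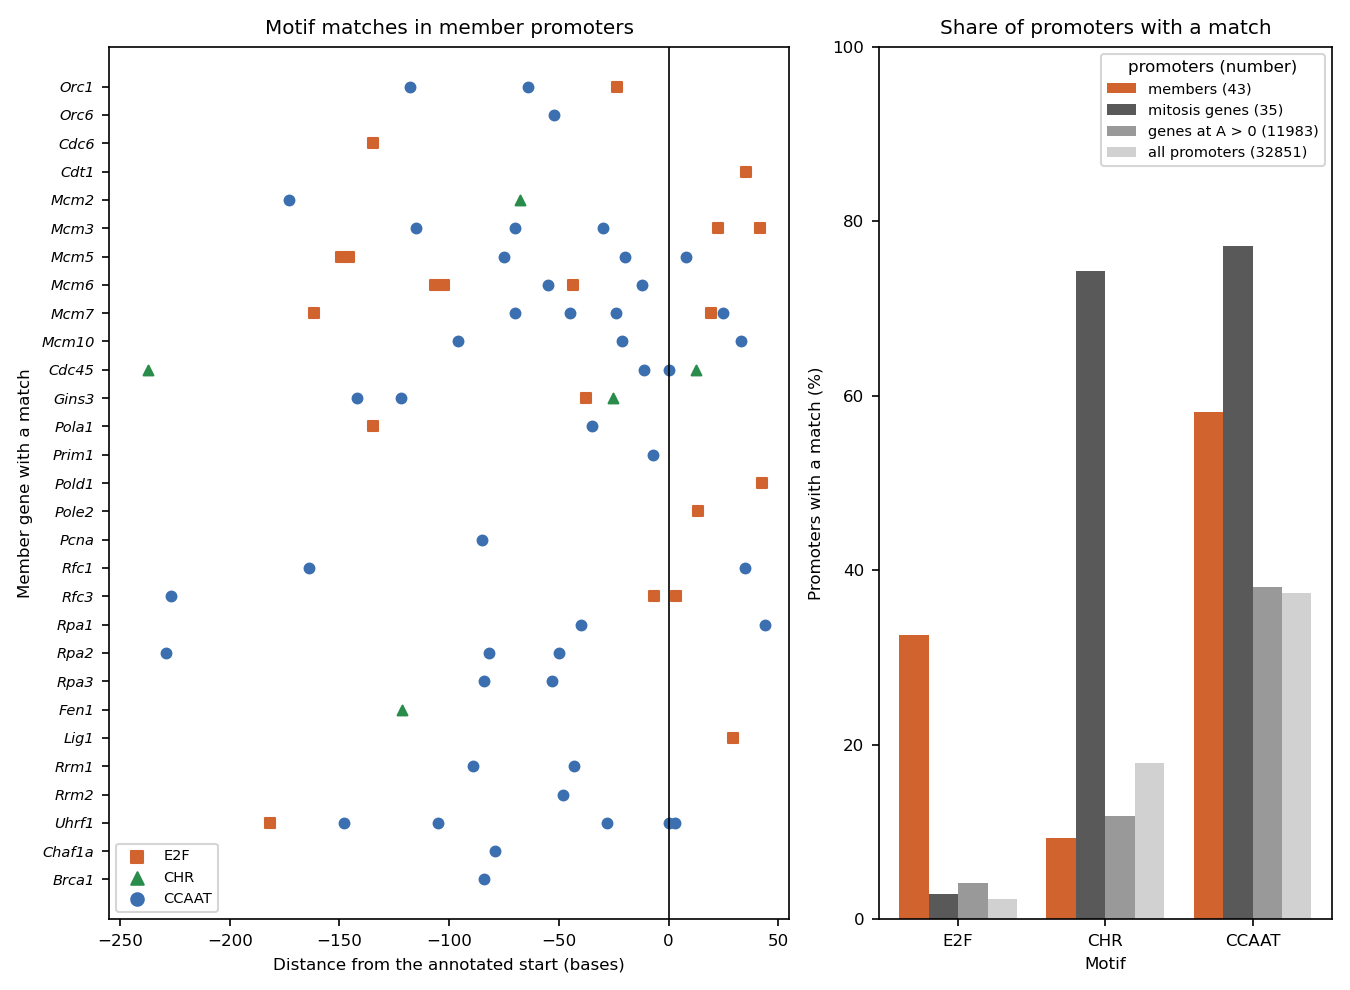
Left, matches to the E2F octamers (squares), the CHR hexamer (triangles) and CCAAT (circles) in the promoter windows of member genes, placed by distance in bases from the annotated start. Right, the percentage of promoter windows with a match, where 32.6% of the member windows and 4.12% of those of expressed genes hold an E2F octamer and 74.3% of the windows of mitosis genes hold the CHR hexamer.

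Replication mRNAs were, with few exceptions, slightly more abundant with si*Vgll3* than with siCtrl. The difference M, log2 of the si*Vgll3* TPM over the siCtrl TPM, had a median of 0.18 over the 46 genes, against −0.05 over all 11754 genes with an M and A > 0, where A is log2 of the mean TPM of both libraries. All 46 members passed that filter. M was above 0 for 42 of them (91.3%), against 43.0% of all genes. In brackets after M stands its 95% Clopper-Pearson interval from the read counts, which covers counting error only. This interval lay wholly above 0 for 40 members (87.0%), against 32.4% of all genes, and wholly below 0 for 2 members (4.35%), against 45.8% of all genes. The median member had 9160 reads over both libraries and the median gene 7361.

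Few of these differences were large. The study's own MA plot sets its threshold at M < −0.5, and 0.5 was used here in both directions. M > 0.5 was reached by 3 members (6.52%), a share near the 5.73% of all genes. M < −0.5 was reached by 1 member (2.17%), against 11.4% of all genes. The middle 50% of the members lay between 0.11 and 0.32 on the log2 scale. TPM summed over the members was 2266 with siCtrl and 2582 with si*Vgll3*, 13.9% higher, or 0.227% and 0.259% of all TPM. The lists described further on were also higher in sum. That rise was 13.3% for other replication genes, 17.5% for the RB-E2F pathway, 12.9% for CDK inhibitors and 11.6% for mitosis genes. M was above 0 for only 3 of the 7 CDK inhibitor genes (42.9%, against 43.0% of all genes), with a median M of −0.06. Their sum of 491 TPM with siCtrl and 554 TPM with si*Vgll3* held *Cdkn1a* at 272 and 347 TPM. In a culture, more cells in S phase and more mRNA per cell cannot be told apart by such values. The study reports no difference in proliferative capacity between wild-type and *Vgll3* knockout myofibroblasts in its assays, in culture and in the heart. Its methods describe the culture assay on myofibroblasts transfected with siRNA, with 72 h after transfection among the time points. How the mRNA values here relate to those assays was not tested.

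**Figure D2:**
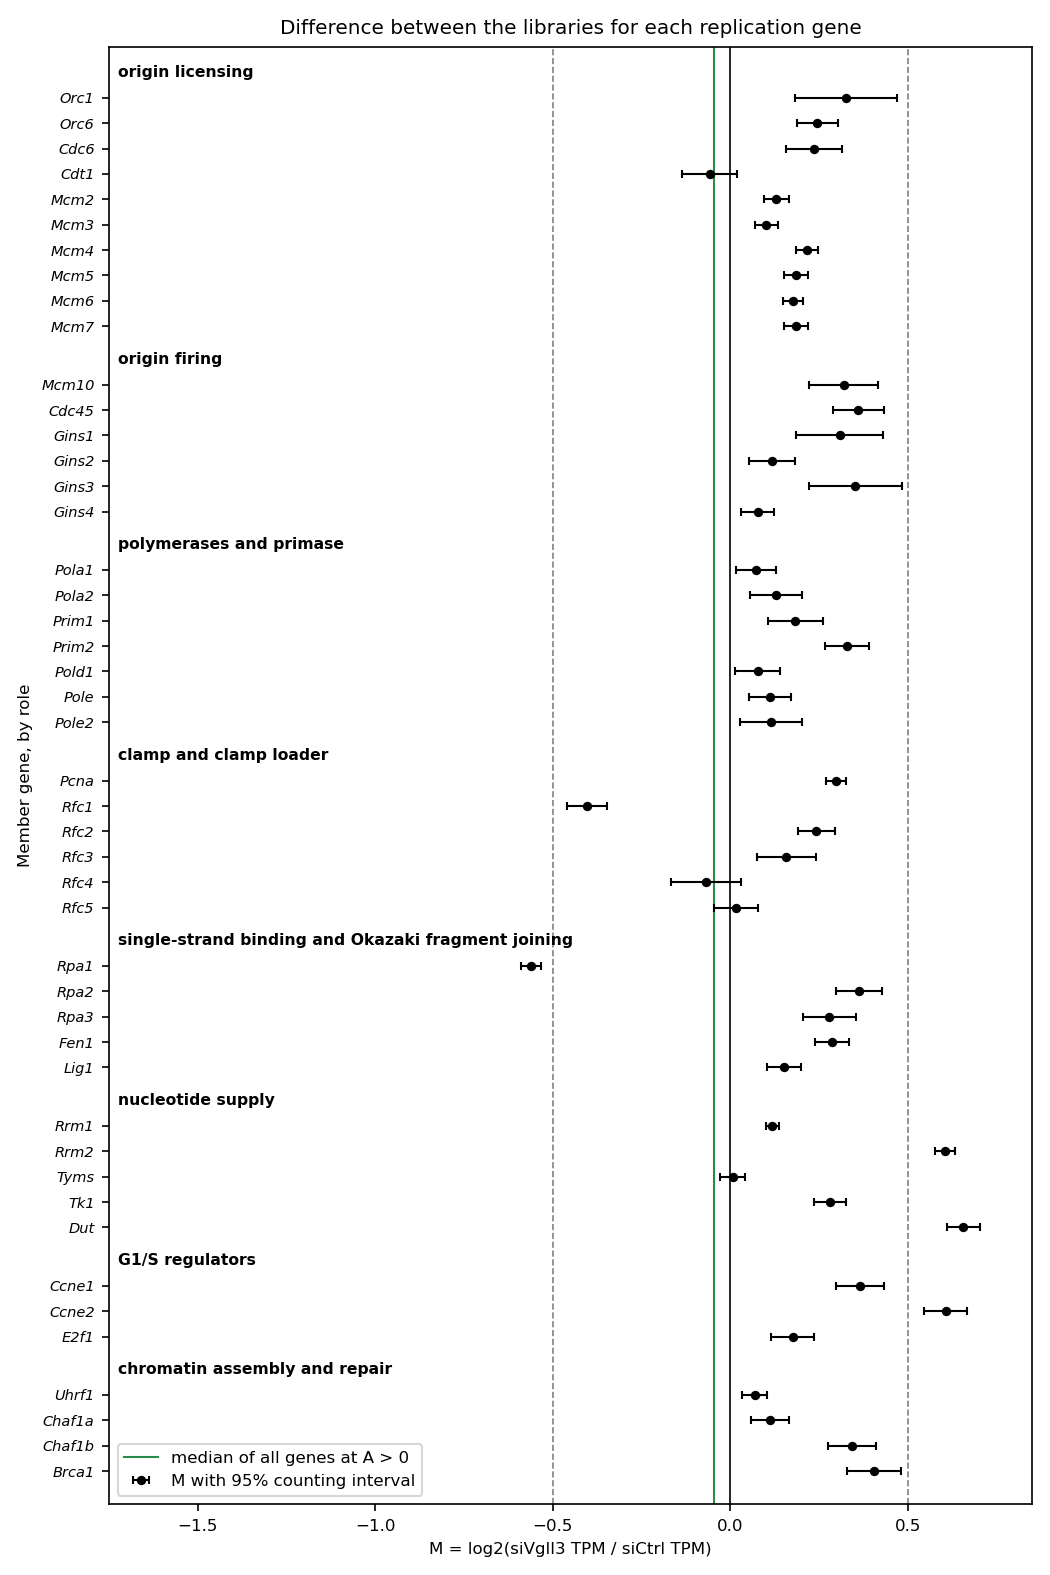
M of each of the 46 genes (log2 scale, points) with its 95% counting interval (bars), by role, with dashed lines at −0.5 and 0.5 and the median of all genes in green. Most points sit between 0 and 0.41, with *Rrm2*, *Ccne2* and *Dut* beyond 0.5, *Rfc1* at −0.40 and *Rpa1* at −0.56.

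Origin licensing begins with the origin recognition complex, to which CDC6 and CDT1 bring the MCM helicase. *Orc1*, the cell cycle-regulated ATPase of that complex, was the scarcest member of all, at 3.91 TPM with siCtrl and 4.90 TPM with si*Vgll3*, with an M of 0.33 [0.18, 0.47]. *Orc6* was at 45.7 and 54.1 TPM, and its M was 0.24 [0.19, 0.30]. *Cdc6* was at 8.73 and 10.3 TPM, an M of 0.24 [0.16, 0.31]. All 3 were thus higher with si*Vgll3* by more than counting error.

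*Cdt1* stood apart from its partners. It was at 20.1 TPM with siCtrl and 19.3 TPM with si*Vgll3*, and the interval of its M of −0.06 held 0 [−0.14, 0.02]. *Gmnn*, which encodes the CDT1 inhibitor geminin and is not a member, was at 53.4 and 61.7 TPM, an M of 0.21 [0.14, 0.28]. The ratio of *Cdt1* to *Gmnn* TPM was 0.377 with siCtrl and 0.313 with si*Vgll3*.

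The 6 genes of the MCM2-7 ring moved together within a narrow band. Their M ran from 0.10 for *Mcm3* [0.07, 0.13] to 0.21 for *Mcm4* [0.18, 0.25], with a median of 0.18. *Mcm6* was the most abundant, at 97.9 TPM with siCtrl and 111 TPM with si*Vgll3*, and *Mcm2* the least, at 57.8 and 63.2 TPM. The ring summed to 454 TPM with siCtrl and 510 TPM with si*Vgll3*, 12.3% higher. The highest subunit exceeded the lowest 1.69-fold with siCtrl and 1.75-fold with si*Vgll3*, so the proportions among the 6 mRNAs were nearly alike in the 2 libraries.

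Origin firing turns the loaded ring into an active helicase by adding CDC45 and the GINS complex, with the help of MCM10. All 6 genes of this role were higher with si*Vgll3* beyond counting error, with a median M of 0.31. *Cdc45* had the highest M, 0.36 [0.29, 0.43], at 22.3 TPM with siCtrl and 28.7 TPM with si*Vgll3*. *Mcm10* was at 7.28 and 9.08 TPM, an M of 0.32 [0.22, 0.42]. The GINS subunits, unlike the MCM genes, were far apart in level. *Gins4* was at 87.4 and 92.1 TPM and *Gins3* at 5.62 and 7.18 TPM, a ratio of 15.5 with siCtrl and 12.8 with si*Vgll3*. The scarcer subunits had the larger differences, with an M of 0.35 for *Gins3* [0.22, 0.48] and 0.31 for *Gins1* [0.19, 0.43], against 0.12 for *Gins2* [0.05, 0.18] and 0.08 for *Gins4* [0.03, 0.12].

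The polymerases showed small differences in the same direction for all 7 genes, with a median M of 0.11. Polymerase α, built from POLA1 and POLA2 with the primase subunits PRIM1 and PRIM2, lays the primers, and polymerases δ and ε extend them. *Prim2* had both the highest level and the highest M of these genes, at 30.9 TPM with siCtrl and 38.8 TPM with si*Vgll3*, an M of 0.33 [0.27, 0.39]. *Pola1* had the lowest M, 0.07 [0.02, 0.13], at 15.2 and 16.0 TPM. The catalytic subunits of the replicative polymerases lay close to it. *Pold1* was at 18.4 and 19.4 TPM and *Pole* at 10.0 and 10.8 TPM, with an M of 0.08 [0.01, 0.14] and 0.11 [0.05, 0.17].

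The clamp and its loader divided. *Pcna*, which encodes the sliding clamp that tethers polymerases to DNA, was the most abundant member, at 227 TPM with siCtrl and 279 TPM with si*Vgll3*, an M of 0.30 [0.27, 0.33]. Replication factor C, the loader that places the clamp, has RFC1 as its large subunit and RFC2 to RFC5 as small ones that other loaders share. *Rfc1* (chr5:65261850-65335670) was lower with si*Vgll3*, at 20.8 TPM with siCtrl and 15.7 TPM with si*Vgll3*, an M of −0.40 [−0.46, −0.35]. In contrast, *Rfc2* had an M of 0.24 [0.19, 0.29] and *Rfc3* of 0.16 [0.07, 0.24]. The intervals of *Rfc4*, −0.07 [−0.17, 0.03], and *Rfc5*, 0.02 [−0.05, 0.08], held 0. The TPM of *Rfc1* was 0.352 of that of *Rfc2* with siCtrl and 0.225 of it with si*Vgll3*.

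In replication protein A too, 1 subunit mRNA was lower with si*Vgll3*, and here the other 2 were both higher. This trimer of RPA1, RPA2 and RPA3 coats single-stranded DNA, and RPA1 holds most of its DNA-binding domains. *Rpa1* (NCBI gene 68275, chr11:75298166-75348324, minus strand) was the only member below −0.5. Its reads numbered 27228 with siCtrl and 17078 with si*Vgll3*, and its level was 140.1 and 94.98 TPM, an M of −0.56 [−0.59, −0.53], so that 67.8% of the siCtrl level was left. *Rpa2* went the other way, from 30.2 TPM with siCtrl to 38.8 TPM with si*Vgll3*, an M of 0.36 [0.30, 0.43], and *Rpa3* was at 68.1 and 82.6 TPM, an M of 0.28 [0.20, 0.35]. The ratio of *Rpa1* to *Rpa2* TPM was 4.64 with siCtrl and 2.45 with si*Vgll3*. The ratio of *Rpa1* to *Rpa3* was 2.06 with siCtrl and 1.15 with si*Vgll3*. Of all 11754 genes, 9.57% had a lower M than *Rpa1*, so its value is unusual among the members but not in these libraries.

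Okazaki fragments on the lagging strand are trimmed by the flap endonuclease FEN1 and sealed by DNA ligase I. *Fen1* was at 46.6 TPM with siCtrl and 56.8 TPM with si*Vgll3*, an M of 0.29 [0.24, 0.34]. *Lig1* was at 34.1 and 37.9 TPM, an M of 0.15 [0.10, 0.20]. Both were higher with si*Vgll3* beyond counting error.

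The genes that supply nucleotides held 2 of the 3 members above 0.5. *Dut* (NCBI gene 110074, chr2:125247190-125258608, plus strand) encodes dUTPase, which keeps uracil out of DNA and makes the precursor of thymidylate. It had 6339 reads with siCtrl and 9106 with si*Vgll3*, or 42.3 and 66.6 TPM, which is 1.58-fold higher with si*Vgll3*, an M of 0.66 [0.61, 0.70] and the highest of the 46. *Rrm2* (NCBI gene 20135, chr12:24708241-24714146, plus strand), the S phase-regulated subunit of ribonucleotide reductase, was at 121 TPM with siCtrl and 184 TPM with si*Vgll3*, 1.52-fold higher. Its counting interval reached from 0.58 to 0.63, so that for both genes the whole interval lay above 0.5.

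The rest of this role moved less. *Rrm1*, the large subunit of the reductase, was at 186 TPM with siCtrl and 202 TPM with si*Vgll3*, an M of only 0.12 [0.10, 0.14]. The ratio of *Rrm1* to *Rrm2* TPM was thus 1.54 with siCtrl and 1.10 with si*Vgll3*. *Tk1*, thymidine kinase of the salvage pathway, was at 87.0 and 105.7 TPM, an M of 0.28 [0.24, 0.33]. *Tyms*, thymidylate synthase, was at 57.0 and 57.3 TPM, and the interval of its M of 0.01 held 0 [−0.03, 0.04].

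Among the G1/S regulators, both E-type cyclins were higher with si*Vgll3*. These cyclins activate CDK2 at the entry into S phase and are themselves E2F targets. *Ccne2* (NCBI gene 12448, chr4:11191351-11204779, plus strand) was at 19.8 TPM with siCtrl and 30.1 TPM with si*Vgll3*, 1.52-fold higher, with a counting interval of M from 0.55 to 0.67. *Ccne1* was at 25.6 and 32.9 TPM, an M of 0.36 [0.30, 0.43]. *E2f1*, an activating E2F factor, was at 25.4 and 28.7 TPM, an M of 0.18 [0.12, 0.24].

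The 4 genes of chromatin assembly and repair were all higher with si*Vgll3* beyond counting error. *Uhrf1*, which helps to copy DNA methylation onto new strands, was the most abundant, at 56.7 TPM with siCtrl and 59.5 TPM with si*Vgll3*, an M of 0.07 [0.03, 0.10]. The large and middle subunits of chromatin assembly factor 1 differed, with an M of 0.11 for *Chaf1a* [0.06, 0.16] and 0.34 for *Chaf1b* [0.28, 0.41]. *Brca1*, a factor of homologous recombination, had the highest M of this role, 0.40 [0.33, 0.48], at 5.80 and 7.68 TPM.

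**Figure D3:**
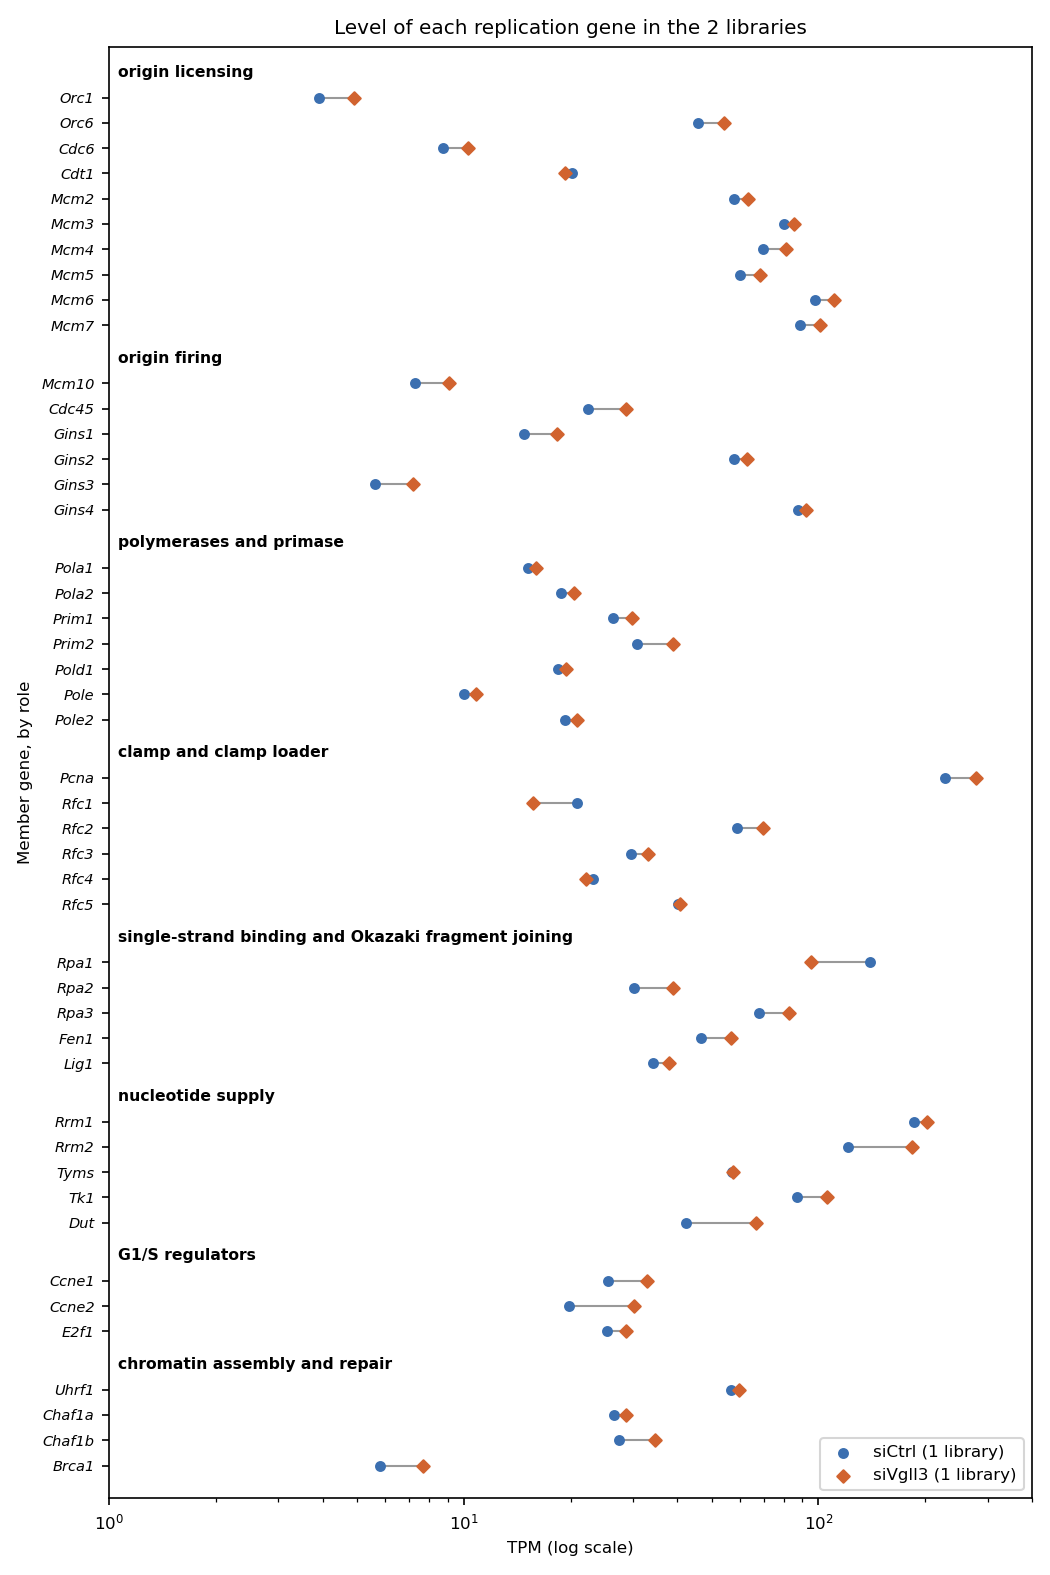
TPM of each of the 46 genes (log axis) with siCtrl (circles) and si*Vgll3* (diamonds), 1 library each, by role. The levels run from 3.91 TPM for *Orc1* to 227 TPM for *Pcna* with siCtrl, and the diamond lies to the left of the circle for 4 genes: *Cdt1*, *Rfc1*, *Rfc4* and *Rpa1*.

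The promoters of the members at either end of M are shown next, namely the 2 highest and the 2 lowest with a window in RefSeq, which leaves out *Ccne2*. Capitals mark CCAAT boxes on either strand. None of these 4 windows held an E2F octamer or the CHR hexamer, and the window of *Dut* held no CCAAT box either. In GENCODE *Dut* begins at 125247190, before its window, so the whole window lies within the gene as annotated there.
Dut, chr2:125247265-125247564, plus strand: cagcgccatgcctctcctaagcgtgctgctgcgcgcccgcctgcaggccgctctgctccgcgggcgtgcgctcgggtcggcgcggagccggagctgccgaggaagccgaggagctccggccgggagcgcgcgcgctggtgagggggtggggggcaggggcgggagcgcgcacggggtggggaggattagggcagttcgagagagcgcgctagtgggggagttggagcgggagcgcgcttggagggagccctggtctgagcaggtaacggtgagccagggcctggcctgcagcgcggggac
Rrm2, chr12:24708004-24708303, plus strand: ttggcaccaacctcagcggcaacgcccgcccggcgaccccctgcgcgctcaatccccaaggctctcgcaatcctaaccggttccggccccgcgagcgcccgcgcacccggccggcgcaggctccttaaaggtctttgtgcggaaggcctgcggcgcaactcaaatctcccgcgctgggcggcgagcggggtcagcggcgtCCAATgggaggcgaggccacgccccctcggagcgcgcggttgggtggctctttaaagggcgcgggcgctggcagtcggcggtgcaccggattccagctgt
Rpa1, chr11:75348334-75348633, minus strand: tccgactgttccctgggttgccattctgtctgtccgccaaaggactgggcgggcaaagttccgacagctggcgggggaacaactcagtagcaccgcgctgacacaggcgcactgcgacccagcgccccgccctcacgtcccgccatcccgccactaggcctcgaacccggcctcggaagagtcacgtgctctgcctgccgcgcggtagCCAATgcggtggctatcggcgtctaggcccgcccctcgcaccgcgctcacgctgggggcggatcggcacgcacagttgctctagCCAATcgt
Rfc1, chr5:65335590-65335889, minus strand: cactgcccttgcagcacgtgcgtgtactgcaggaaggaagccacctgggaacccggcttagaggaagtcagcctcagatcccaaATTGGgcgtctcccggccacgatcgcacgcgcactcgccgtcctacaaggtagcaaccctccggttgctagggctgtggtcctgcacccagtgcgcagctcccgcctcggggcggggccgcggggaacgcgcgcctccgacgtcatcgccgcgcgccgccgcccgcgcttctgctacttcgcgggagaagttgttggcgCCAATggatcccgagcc

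The members with an E2F octamer did not have the larger differences. Their median M was 0.15 over 14 genes, from −0.06 for *Cdt1* to 0.35 for *Gins3*. The 24 members with a window but no octamer had a median of 0.26 and spread from −0.56 for *Rpa1* to 0.66 for *Dut*. No test was made of this difference. *Ccne1*, an E2F target as said above, was among the 24 without an octamer, so the split does not separate E2F targets from other genes.

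The rest of the replication machinery was described by a list of 46 further genes, all of them at A > 0. Of these, 39 had an M above 0 (84.8%, against 43.0% of all genes) and 32 had a counting interval wholly above 0 (69.6%, against 32.4%). The interval lay wholly below 0 for 3 (6.52%, against 45.8%), among them the maintenance methyltransferase *Dnmt1* at −0.12. The list had a median M of 0.18, close to that of the members. It held 2 genes above 0.5 (4.35%, against 5.73% of all genes) and 0 below −0.5 (against 11.4%). *Slbp*, which encodes the protein that binds the stem-loop of replication-dependent histone mRNAs, was at 33.1 TPM with siCtrl and 63.9 TPM with si*Vgll3*, an M of 0.95 [0.89, 1.01]. *Dck*, deoxycytidine kinase of nucleotide salvage, was at 23.8 and 35.8 TPM, an M of 0.59 [0.54, 0.65]. The most abundant gene of the list, the polymerase ε subunit *Pole3*, was at 101 and 116 TPM, an M of 0.19 [0.13, 0.26].

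Upstream of the replication genes, 28 genes of the RB-E2F pathway went both ways, with a median M of 0.12. The interval lay wholly above 0 for 16 (57.1%, against 32.4% of all genes) and wholly below 0 for 7 (25%, against 45.8%). In this list 4 genes exceeded 0.5 (14.3%, against 5.73% of all genes), of which the 3 furthest are given. *Ccnd1*, the cyclin D1 gene that starts RB phosphorylation in G1, had the largest difference, from 86.5 TPM with siCtrl to 170 TPM with si*Vgll3*, an M of 0.98 [0.95, 1.00]. The repressive E2F genes *E2f7* and *E2f5* were at 0.63 [0.56, 0.71] and 0.59 [0.48, 0.70]. *E2f2* was below −0.5 in TPM, −0.55 [−0.78, −0.32], but with only 368 and 272 reads, and on counts scaled to library totals (CPM) its M was −0.27. *Cdk4*, the most abundant of the list, was at 607 and 627 TPM, an M of 0.05 [0.03, 0.06].

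The genes that restrain the cycle were also measured. Of 7 CDK inhibitor genes, 3 had a counting interval above 0 (42.9%, against 32.4% of all genes) and 3 had one below 0 (42.9%, against 45.8%). *Cdkn1c* was the only one above 0.5, at 3.61 TPM with siCtrl and 6.95 TPM with si*Vgll3*. *Cdkn1a*, the p21 gene and the most abundant of them, was at 272 and 347 TPM, an M of 0.35 [0.33, 0.37]. Thus p21 mRNA and the replication mRNAs were higher in the same library.

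A list of 39 mitosis genes gave a smaller share of higher genes than the replication members did. M was above 0 for 28 of them (71.8%, against 43.0% of all genes), with a median M of 0.11. The interval lay above 0 for 26 (66.7%, against 32.4%) and below 0 for 9 (23.1%, against 45.8%). No gene passed 0.5 in either direction. *Ube2c*, the most abundant, was at 227 and 268 TPM, an M of 0.24 [0.21, 0.27]. The proliferation marker *Mki67*, chosen after its value was seen, was at 24.5 TPM with siCtrl and 19.0 TPM with si*Vgll3*, an M of −0.37 [−0.40, −0.33]. The difference between the lists was not tested.

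**Figure D4:**
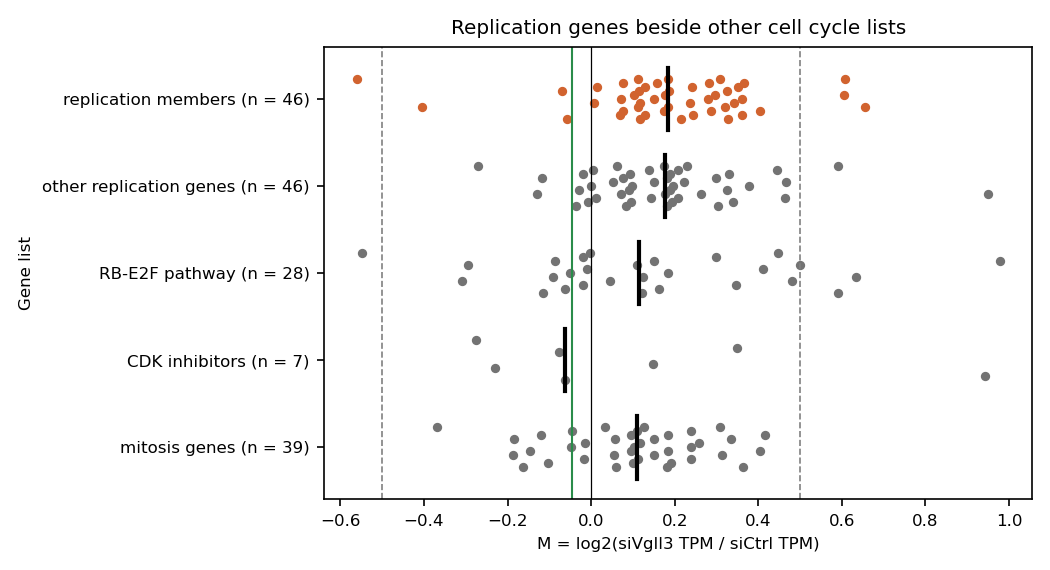
M (log2 scale) of each gene at A > 0 in the replication members and in the 4 lists beside them, with a black bar at the median of each list, the median of all genes in green, and dashed lines at −0.5 and 0.5. The members lie mostly to the right of 0, the CDK inhibitors on both sides of it, and the mitosis genes between −0.37 and 0.42.

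Part of the reads of some members may belong to a neighbour. In GENCODE vM21 (GRCm38), 23 of the 46 genes overlap another annotated gene, and for 16 of them exons overlap. Of the genes past 0.5 in either direction, *Ccne2* shares exonic bases with *Ints8* and *Rpa1* with *Gm47300*, while *Dut* and *Rrm2* overlap no gene. The library kit keeps the strand, but whether the counting used it is not given in the sources used here. Without the 23 genes the median M was 0.21.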

How the data were processed

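Libraries of polyadenylated RNA (TruSeq Stranded mRNA LT kit, NovaSeq) were sequenced for the authors. Their processing notes name FastQC, Trimmomatic, HISAT2 and StringTie as the tools and mm10 as the genome build. Versions and the annotation are not given in the sources used here. The authors deposited raw read counts per gene and, in a table per library, TPM normalised for gene length and library size, which lists 14158 genes.

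M, A and the threshold of 0.5 follow the axes of the study's MA plot, with nothing added before the logarithm and A > 0, and 2 genes at 0 TPM in 1 library have no M. The study gives no formula for A and no cut at M > 0.5. The rule used here gave 1341 genes with M < −0.5, which is not the number the study reports. Intervals are 95% Clopper-Pearson intervals of the count ratio, conditional on the sum of both counts and shifted onto the TPM ratio (scipy 1.17.1). They were checked only on simulated counts that carried counting error alone, which is what such intervals assume. That check used a shift for library size in place of the shift onto TPM. Sequenced reads are not independent molecules. With 1 library per condition no test was run, and edgeR 4.0.16 and DESeq2 1.42.0 served only for scaling. Promoters came from RefSeq, positions from GENCODE vM21.

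The members and lists were chosen with earlier results of these data known. Named genes are the members past 0.5 and, in each role, those with the highest level, the highest M and the lowest M. From each further list came the genes past 0.5, at most 3 a direction, and the most abundant gene. Other members and genes, and the MCM stretches, were named after their values were seen.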

Additional observations from a re-analysis of the deposited data

How the results depend on the processing

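No paired analysis was possible because siCtrl and si*Vgll3* had 1 library each, and no replicate could be left out. *Dut*, *Rrm2* and *Ccne2* above 0.5 and *Rpa1* below −0.5 were the same genes under every other scaling, pseudocount and filter tried and when the entire counting interval was required to exceed 0.5 in size. With a threshold of 1, 0 members were higher and 0 were lower. The filters left all 46 members in, so they say nothing about stability. Under the 6 changes of scale or pseudocount no member changed sign, 42 had an M above 0 each time, and the median M ran from 0.18 with 1 TPM added to 0.24 with CPM, read counts scaled to library totals. With CPM, 50.7% of all genes were above 0 and 39.3% had an interval above 0, against 42 of the 46 members. The rise of summed TPM was 12.9% without *Pcna* and 17.4% without *Rpa1* and *Rfc1*, the latter chosen after the data were seen. On the strand of the gene alone, 16.3% of member windows held an E2F octamer and 34.9% held CCAAT, against 2.19% and 21.96% of the windows of expressed genes on that strand. At this depth, the interval of *Orc1*, the member with the fewest reads in a library (752), ran from 0.18 to 0.47, and differences between cultures cannot be judged at all.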

Other observations

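Replication-dependent histone genes, whose products package new DNA, were taken by their cluster names (Hist1h to Hist4h) after the value of *Slbp* was seen. Of 69 such genes in the count table, 29 reached A > 0, and 1 of these, *Hist2h3c1*, was listed at 0 TPM with siCtrl despite 199 reads and so had no M. For the other 28, M was above 0 for 22 (78.6%, against 43.0% of all genes). The counting interval lay above 0 for 17 (60.7%, against 32.4%) and below 0 for 4 (14.3%, against 45.8%). In all, 16 exceeded 0.5 (57.1%, against 5.73%) and 3 were below −0.5 (10.7%, against 11.4%). The 29 genes summed to 221 TPM with siCtrl and 318 TPM with si*Vgll3*. *Hist1h2bc* was the most abundant, at 73.9 and 128 TPM, an M of 0.79, while *Hist1h1c* was at 49.7 and 45.2 TPM, an M of −0.14. Most of these mRNAs lack a poly-A tail and the libraries were made from polyadenylated RNA, the median gene had only 111.5 reads over both libraries, and the genes are near-identical copies between which the counting could split reads, so these values are uncertain.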
